A study of Mus musculus with 44 samples.

Results

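The sites described here are the Snai1 ChIP-seq peaks that were listed for mouse HPC7 cells with wild-type Snai1 and met no peak, by not even 1 base, in the lists for mutant Snai1 and for the empty vector. They number 432 of the 2929 wild-type peaks. Of the others, 2406 overlapped a mutant peak and no empty-vector peak, and 91 overlapped an empty-vector peak. The mutant list held 12037 peaks, 9508 of them without a wild-type or empty-vector peak, and the empty-vector list held 137. HPC7 is a mouse haematopoietic progenitor cell line, grown here with stem cell factor at 100 ng/ml. The cells received an MSCV-IRES-GFP retrovirus with wild-type Snai1, with a Snai1 mutant that carries alanine in place of phenylalanine at residue 5 and interacts poorly with Lsd1, or with no insert. GFP-positive cells were sorted 1 week later and expanded. All constructs therefore share the cell line, the vector and the sort, and Snai1 was expressed from the retrovirus in cells that keep their own Snai1 gene. Snai1 ChIP had 4 technical replicates per construct, deposited as 1 peak list each, and H3K4me2 and H3K4me1 ChIP had 3 libraries each per construct.

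Snai1 is a zinc-finger repressor best known for silencing epithelial genes during epithelial-mesenchymal transition. Its zinc fingers bind the E-box CAGGTG, and its N-terminal SNAG domain recruits the demethylase Lsd1 (gene Kdm1a), which removes methyl groups from mono- and dimethylated lysine 4 of histone H3. H3K4me2 is found at active promoters and enhancers, and H3K4me1 mostly at enhancers and on the flanks of promoters.

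Counts in the start-site windows summed to 8694515 to 18199945 per H3K4me2 library, 4042976 to 8813537 per H3K4me1 library, and 2714255 and 3355479 in the 2 IgG libraries of wild-type Snai1 cells. In those cells 8 of 10 progenitor marker genes had more H3K4me2 than IgG (median log2 ratio 1.55). The same held for 0 of 6 B cell, 0 of 7 T cell, 0 of 5 mature neutrophil, 1 of 5 macrophage, 1 of 4 erythroid, 1 of 6 mast cell and 0 of 6 epithelial markers. Replicate 1 of the methylation libraries stood apart from replicates 2 and 3, and differences within replicate 1 and within replicates 2 and 3 are given beside the pooled ones for the gene sets and for most genes named. With 1 list per construct, no Snai1 peak has a replicate check. In the start-site window of the Snai1 gene, H3K4me2 was 32.9, 54.4 and 41.4 CPM in wild-type, 56.5, 33.8 and 30.9 CPM in mutant and 26.7, 35.1 and 26.3 CPM in empty-vector libraries, counts that do not measure the amount of construct.

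Few of the 432 sites touched a promoter, here the RefSeq window that runs from 250 bases before to 50 bases after a start site. In 9 of them the summit fell inside such a window, and the promoters of the 4 such peaks with the highest -log10 q are shown, 1 promoter per peak, because they are the places where the bound sequence itself can be read. Capitals mark the Snai1 E-box, CAGGTG or its reverse complement CACCTG, and each sequence runs 5′ to 3′ on the strand of its gene (RefSeq, GRCm38.p6).

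Syt11 (GRCm38.p6 chr3:88772550-88772849, minus strand): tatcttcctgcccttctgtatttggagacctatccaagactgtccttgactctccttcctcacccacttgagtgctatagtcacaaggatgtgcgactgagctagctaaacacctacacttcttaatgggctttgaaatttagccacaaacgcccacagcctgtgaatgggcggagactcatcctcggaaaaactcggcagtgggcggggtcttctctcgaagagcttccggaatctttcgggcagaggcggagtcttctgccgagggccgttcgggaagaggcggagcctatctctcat
Gm36619 (GRCm38.p6 chr5:100726849-100727148, plus strand): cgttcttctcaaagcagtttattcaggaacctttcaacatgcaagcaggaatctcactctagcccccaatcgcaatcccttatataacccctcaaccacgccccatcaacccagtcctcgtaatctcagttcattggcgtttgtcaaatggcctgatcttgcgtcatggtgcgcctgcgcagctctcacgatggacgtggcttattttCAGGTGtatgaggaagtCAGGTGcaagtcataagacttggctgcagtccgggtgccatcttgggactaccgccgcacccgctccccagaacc
2310040G24Rik (GRCm38.p6 chr6:86488178-86488477, minus strand): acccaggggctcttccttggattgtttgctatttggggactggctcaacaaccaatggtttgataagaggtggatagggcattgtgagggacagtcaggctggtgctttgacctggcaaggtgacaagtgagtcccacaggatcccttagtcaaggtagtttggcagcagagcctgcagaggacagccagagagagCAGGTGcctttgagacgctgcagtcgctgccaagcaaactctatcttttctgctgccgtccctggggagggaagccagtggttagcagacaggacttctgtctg
Zfp748 (GRCm38.p6 chr13:67553103-67553402, minus strand): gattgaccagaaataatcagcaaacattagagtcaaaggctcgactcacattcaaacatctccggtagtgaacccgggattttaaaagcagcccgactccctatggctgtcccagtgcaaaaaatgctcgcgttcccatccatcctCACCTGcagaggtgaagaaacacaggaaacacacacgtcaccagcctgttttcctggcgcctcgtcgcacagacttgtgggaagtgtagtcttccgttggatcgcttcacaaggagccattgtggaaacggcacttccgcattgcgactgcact

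The summit lay at base 279 of the Syt11 window, 206 of Gm36619, 255 of 2310040G24Rik and 138 of Zfp748, counted from the first base printed. Syt11, which encodes a synaptotagmin, held no CAGGTG and had the peak with the highest -log10 q and fold of these (10.5-fold over local background). The predicted gene Gm36619 held 2, the nearer centred 5.5 bases from the summit (6.90-fold), and Zfp748, a zinc-finger gene, held 1 centred 11.5 bases away (6.87-fold). In 2310040G24Rik the single E-box was centred 55.5 bases from the summit (6.61-fold). Each motif was searched on both strands, and CAGGTG was present in 20.2% of all 32851 RefSeq promoters. It was present in 7 of the 26 promoters that overlapped a wild-type-only site (26.9%, exact 95% interval 11.6 to 47.8%), in 245 of 494 that overlapped a wild-type peak shared with the mutant (49.6%), and in 665 of 3202 that overlapped a mutant-only peak (20.8%). Within 50 bases of a summit inside a promoter, CAGGTG stood at 2 of 9 wild-type-only sites (22.2%, 2.81 to 60.0%), 121 of 245 shared sites (49.4%, 43.0 to 55.8%) and 227 of 1963 mutant-only sites (11.6%, 10.2 to 13.1%). The other E-box searched, CAGCTG, which is its own reverse complement, stood at 1 of 9, 9 of 245 (3.67%) and 80 of 1963 (4.08%). Start sites of neighbouring genes share promoters and peaks, so these counts are descriptions, and 9 sites leave a wide interval.

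By strength, the wild-type-only sites leaned towards the weaker end of the wild-type list, though most peaks there were shared with the mutant. Their fold over local background ran from 3.397 to 17.3 (median 5.53), against 2.78 to 60.9 (median 6.24) for shared wild-type peaks, and their median -log10 q was 6.15 against 9.35. The fold, the -log10 q and the absence from the other lists come from the peak lists, and the sites were chosen by whether the same lists held a peak, so these values are given without a test. Wild-type-only sites made up 23.8% of wild-type peaks with a -log10 q under 5 (120 of 505), 20.6% of those from 5 to 10 (248 of 1203), 7.82% of those from 10 to 20 (55 of 703) and 2.11% of those of 20 and above (9 of 427). They were also narrower, with a median width of 239.5 bp against 293.5 bp. The mutant-only peaks had a median of 5.25-fold, a -log10 q of 7.46 and a width of 270 bp. Many of the 432 sites carried equal scores, since they held 139 distinct -log10 q values and 53 of them shared the value 5.28.

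**Figure D1:**
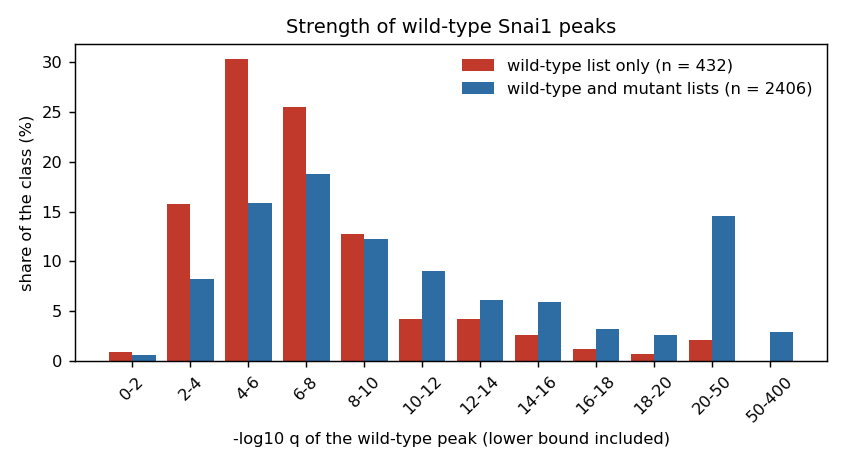
The share of each class of wild-type Snai1 peaks (vertical axis, percent) by the -log10 q of the peak (horizontal axis), for 432 sites in the wild-type list alone and 2406 shared with the mutant list. Of the sites in the wild-type list alone 30.3% lay between 4 and 6, against 15.9% of shared peaks, and 2.08% against 14.5% lay between 20 and 50.

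The 12 strongest wild-type-only sites lay inside or beside genes of varied kinds, 2 of them (at Syt11 and Clk2) with the summit within 1 kb of a listed start site. The strongest of all, on chromosome 8 (70720059 to 70720414; 17.3-fold, -log10 q 48.5), fell inside the predicted gene Gm3336 and within 5 kb of Iqcn and of Pde4c, a cAMP phosphodiesterase gene. A mutant peak of 6.71-fold stood 1287 bp away. Next were a site 36466 bp from Med27, a Mediator subunit gene (14.3-fold), and a site on chromosome 1 (173361684 to 173362154; 14.02-fold) inside both Cadm3, a cell adhesion gene, and Aim2, the cytosolic DNA sensor gene. A site of 13.8-fold lay 24100 bp from Wasf3, which encodes an actin-regulating WAVE protein. Sites inside the kinesin gene Kif1c (12.1-fold), the cadherin gene Cdh23 (11.8-fold), the beta-arrestin gene Arrb2 (11.3-fold), the mitochondrial carrier gene Slc25a12 (10.5-fold) and Syt11 followed. The last of the 12 lay 893 bp from the chemokine gene Ccl7 (9.48-fold), 6790 bp from Dntt, which encodes terminal deoxynucleotidyl transferase of lymphoid precursors (9.64-fold), and 88 bp from Clk2, a splicing kinase gene (9.64-fold). Arrb2 lies on chromosome 11 and its site (70432978 to 70433317) began 493 bp inside the gene. Of the 12, the site at Gm3336 and the site at Syt11 (2395 bp) had a mutant peak within 5 kb.

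The mutant list often held a peak close by. The distance to the nearest mutant peak ran from 38 to 2608653 bp (median 16485.5 bp, middle 50% from 2372.2 to 53276 bp). It was under 500 bp at 47 sites (10.9%), under 1 kb at 75 (17.4%), under 5 kb at 143 (33.1%) and under 100 kb at 374. The 3 sites closest to the overlap limit had 37, 38 and 42 bases between them and a mutant peak. The first lay on chromosome 1 (151287098 to 151287321; 4.08-fold, mutant peak 3.43-fold), the next 330 bp from Abcc10 on chromosome 17 (46328361 to 46328741; 4.24-fold, mutant peak 8.80-fold), and the last on chromosome 17 (84161876 to 84162131; 4.08-fold, mutant peak 4.79-fold). On the other side of the limit, wild-type peaks inside Fam120c (6.35-fold, mutant 4.96-fold), Fry (6.08-fold, mutant 3.79-fold) and St6galnac6 (6.47-fold, mutant 3.98-fold) were counted as shared on 3, 6 and 15 bases. An empty-vector peak stood within 5 kb of 2 sites, the nearest at 659 bp. No site overlapped a miRNA hairpin, and 3 lay within 5 kb of one.

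**Figure D2:**
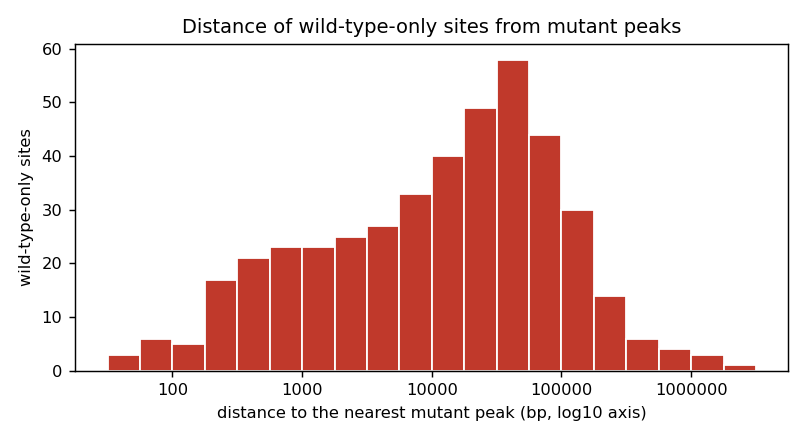
The number of wild-type-only sites (vertical axis) by the distance to the nearest mutant peak (horizontal axis, bp on a log10 scale), for all 432 sites. The distances spread from 38 to 2608653 bp with a median of 16485.5 bp, and 75 sites lay under 1 kb.

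Around start sites the wild-type-only sites lay on the flanks. Position could be read for 421 sites, 2351 shared peaks and 9265 mutant-only peaks on chromosomes with promoter entries. Start sites were listed for 18458 genes, against 25204 genes with coordinates. A summit at an unlisted start site was therefore measured to another start site. The site inside Fli1, for example, had its nearest listed start site at Kcnj1, 144721 bp away. The shares below use only promoters and start sites of genes in the count table. The site at Gm36619, shown above, is therefore not counted as on a promoter or as within 1 kb of a start site. Of the wild-type-only sites, 18 overlapped a promoter window (4.28%, exact 95% interval 2.55 to 6.67%), against 365 shared peaks (15.5%, 14.1 to 17.1%) and 2406 mutant-only peaks (26.0%, 25.1 to 26.9%). The share was low at each strength: 4.31, 4.15 and 4.69% for -log10 q under 5, from 5 to 10, and from 10 up, against 18.3, 13.9 and 16.0% of shared wild-type peaks. A summit within 100 bp of a start site was found at 1.43% of wild-type-only sites, 5.44% of shared peaks and 15.7% of mutant-only peaks. From 500 to 1000 bp the order was the other way, with 11.2% (8.32 to 14.6%), 9.15% (8.01 to 10.4%) and 5.29% (4.84 to 5.76%), and the first 2 intervals overlapped. Among summits within 1 kb of a start site, 97 of the wild-type-only list, 718 shared and 3234 mutant-only, the median distance was 490, 325 and 117 bp. Of these 85.6%, 57.7% and 31.4% stood at least 250 bp away. The wild-type-only summits fell upstream of the start site in 47.4% of cases, the shared ones in 50.6% and the mutant-only ones in 59.5% (exact 95% intervals 37.2 to 57.8%, 46.8 to 54.3% and 57.8 to 61.2%).

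Mutant peaks were dense at start sites, and the rule leaves out each wild-type peak that meets one. Of the 97 wild-type-only summits within 1 kb of a start site, 21 (21.6%) had a mutant peak within 250 bp of that start site. A mutant peak within 1 kb of the site itself was found for 28 of the 97 (28.9%) and for 45 of the 324 farther away (13.9%). The part of this rule in the positions was not tested. Regions of 1 list are not replicates, so the intervals cover counting error only and no test was made between the classes.

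**Figure D3:**
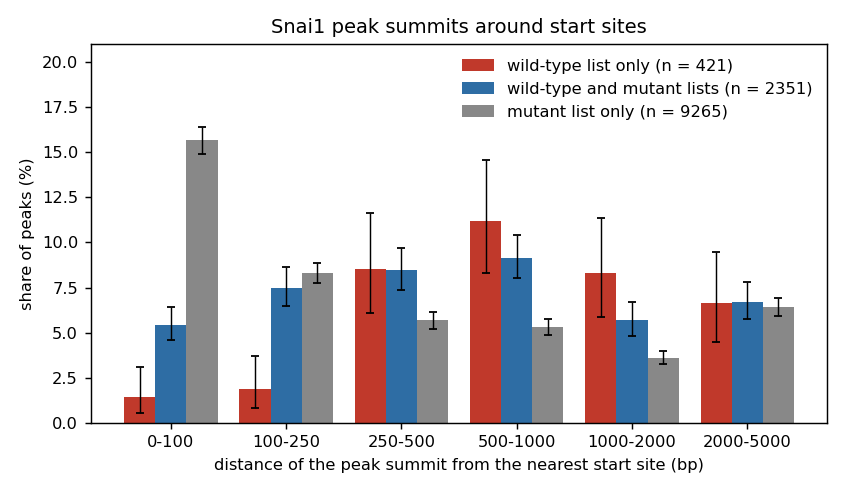
The share of Snai1 peaks (vertical axis, percent, with exact 95% intervals) by the distance of the summit from the nearest RefSeq start site (horizontal axis, bp), for peaks in the wild-type list alone, in both lists and in the mutant list alone. In the 100 bp nearest the start site the shares were 1.43, 5.44 and 15.7%, and from 500 to 1000 bp they were 11.2, 9.15 and 5.29%.

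**Figure D4:**
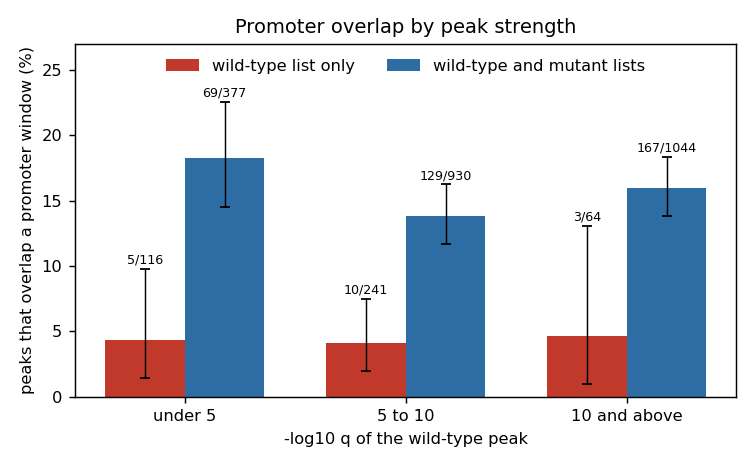
The share of wild-type Snai1 peaks that overlapped a promoter window (vertical axis, percent, with exact 95% intervals and counts) in 3 ranges of -log10 q (horizontal axis), for sites in the wild-type list alone and for peaks shared with the mutant list. The sites in the wild-type list alone held 4.15 to 4.69% in the 3 ranges, and the shared peaks 13.9 to 18.3%.

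With respect to whole genes the classes were closer. Of the wild-type-only sites, 206 (47.7%, 42.9 to 52.5%) lay within 5 kb of either end of a gene, against 53.3% of shared and 56.8% of mutant-only peaks. The summit lay inside a gene at 56.3% (51.4 to 61.0%), 59.7% and 60.2%. Beyond 50 kb from a listed start site lay 22.3%, 21.7% and 19.7%. Another site of the same class stood within 50 kb of 37 wild-type-only sites (8.56%), 34.2% of shared peaks and 69.8% of mutant-only peaks, classes of unequal size. By chromosome, the wild-type-only sites made up between 6.84% (8 of 117 wild-type peaks, chromosome 15; 3.00 to 13.03%) and 22.2% (20 of 90, chromosome 13; 14.1 to 32.2%) of the wild-type list.

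Within 5 kb of an end, 267 of 25204 genes (1.06%) had a wild-type-only site, against 6.65% with a shared wild-type peak and 24.3% with a mutant-only peak. Of the 267, 141 also had a mutant peak of any kind within 5 kb, 42 had a shared wild-type peak, and 126 had no mutant peak. In 14 gene lists a site stood near 2 of 30 stem and progenitor genes, 2 of 22 genes for H3K4 methyltransferases, their cofactors and demethylases, 1 of 29 erythroid and megakaryocytic genes and 1 of 35 other chromatin regulators. The other 10 lists had none: the Lsd1 complex, epithelial, mesenchymal, myeloid, mast cell, lymphoid, Id and E protein, cytokine receptor, cell cycle and housekeeping genes. With 1.06% of all genes near a site, lists of 10 to 35 genes can easily hold none. Shared peaks stood near 5 of the 30 epithelial genes (16.7%, all genes 6.65%) and mutant-only peaks near 6 (20.0%, all 24.3%). At the stem and progenitor genes these were 7 (23.3%) and 10 (33.3%) of 30. At the H3K4 methyltransferase and demethylase genes they were 7 (31.8%) and 12 (54.5%) of 22.

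Ezh2 and Cd47 were the only genes with more than 1 wild-type-only site within 5 kb. Ezh2 encodes the H3K27 methyltransferase of Polycomb repressive complex 2. On chromosome 6 its sites flanked the start site, with the summit of one (47593782 to 47594032; 6.35-fold) 1095 bp downstream and that of the other (47595935 to 47596263; 5.26-fold) 1065 bp upstream. The nearest mutant peak was 40211 bp away. Cd47, the gene of a surface protein that restrains phagocytosis by macrophages, had sites of 5.26-fold on chromosome 16, 7850 bp (49847649 to 49847924) and 327 bp (49855205 to 49855404) upstream of its start site in the promoter table. The gene is annotated from an earlier base (49851328 to 49912503), so the site at 327 bp lies inside the annotated gene and the one at 7850 bp outside it. Cd47 was named after its values were seen.

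The other listed genes were closer to mutant binding, with 1 exception. Hhex, a homeobox gene of early blood progenitors, had a site 547 bp upstream of its start (chromosome 19, 37434025 to 37434434; 7.997-fold) and 2 mutant peaks near the gene, the stronger of 7.29-fold, one of them 1213 bp from the site. Fli1, an ETS factor gene of stem cells and megakaryocytes, had a site inside the gene (5.82-fold) and a mutant peak of 4.67-fold 1240 bp from it. Tfrc, the transferrin receptor gene, had a site 1540 bp downstream of its start (4.87-fold) and mutant peaks of up to 20.6-fold. Men1, whose product menin is a cofactor of MLL methyltransferases, had a site 3500 bp upstream (6.35-fold) and a mutant peak of 12.5-fold near the gene. Cxxc1, a subunit gene of the Setd1 methyltransferase complexes, had a site of 4.98-fold 510 bp beyond the gene, and the nearest mutant peak was 147508 bp away.

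Genes near the wild-type-only sites were marked by H3K4 methylation in the cells with wild-type Snai1. Over IgG, the median log2 ratio in the start-site window was 0.78 for H3K4me2 and 0.55 for H3K4me1 near the wild-type-only sites (266 windows), against 0.89 and 0.67 near shared peaks, 0.79 and 0.53 near mutant-only peaks, and -1.90 and -0.52 over all 27044 windows. The ratio of H3K4me2 was above 0 for 78.9% of windows near the sites and 40.3% of all windows. Where no mutant peak stood near the gene (125 windows) the medians were 0.62 and 0.27. Where the summit lay within 1 kb of the start site, they were 0.91 and 0.53 for the wild-type-only sites (97 windows), 0.86 and 0.60 for shared peaks and 0.83 and 0.52 for mutant-only peaks. Among single genes H3K4me2 over IgG stood at 1.86 for Cd47, 1.79 for Fli1, 1.42 for Ezh2, 1.39 for Men1 and 1.25 for Hhex, and at -0.75 for Ccl7, -1.69 for Pde4c and -3.46 for Iqcn. The windows around start sites do not cover distant sites, and they give no separate H3K4 value for the sites themselves.

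The study set wild-type and mutant Snai1 beside the empty vector to ask what Snai1 binding and its Lsd1 contact do to H3K4 methylation. Near the wild-type-only sites 0 of 265 H3K4me2 windows passed edgeR's quasi-likelihood test at an adjusted p under 0.05 for wild type against empty vector (percent called over all windows 0.00388), 0 for mutant against empty vector (0.0) and 0 for wild type against mutant (0.0). None of 266 H3K4me1 windows passed for the same comparisons (0.0, 0.0 and 0.0). At an unadjusted p under 0.05 the H3K4me2 counts were 19, 12 and 26 of 265, where all windows gave 7.32, 4.95 and 9.9%, and the H3K4me1 counts were 4, 4 and 14 of 266, where all windows gave 2.88, 1.61 and 5.24%. With DESeq2, 1 window passed, that of Cd300ld3 in H3K4me2 of wild type against mutant, where 0.28% of all windows passed. Libraries of the constructs did not overlap in 25 H3K4me2 windows near the sites for wild type against empty vector (9.43%, all windows 12.9%), 21 for mutant against empty vector (7.92%, all 6.86%) and 19 for wild type against mutant (7.17%, all 9.22%). In H3K4me1 it was 37 (13.9%, all 10.8%), 19 (7.14%, all 7.95%) and 23 (8.65%, all 8.71%). Of these, 17, 15 and 7 H3K4me2 windows and 17, 14 and 6 H3K4me1 windows were higher in the construct named first. Direction was not counted over all windows. Most windows without overlap were thus lower in wild type than in mutant and higher in mutant than in empty vector. The medians below have the other sign in these comparisons. The comparisons share their libraries, and the labels do not say whether replicates are separate cultures, so the tests measure the spread between these libraries.

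The direction of the small differences near the sites turned with the replicate number, which does not pair wild-type with mutant libraries. For H3K4me2 of wild type against mutant the median log2 difference near the sites was 0.114, against -0.042 over all windows, and shared and mutant-only peaks had like medians of 0.114 and 0.109. Within replicate 1 the median near the sites was -0.096 and within replicates 2 and 3 it was 0.236, against -0.025 and -0.102 over all windows. In H3K4me1 the pooled median was 0.055, with -0.19 in replicate 1 and 0.197 in replicates 2 and 3. Shared and mutant-only peaks had 0.0564 and 0.0509, and all windows -0.0121. Wild type against empty vector gave 0.037 in H3K4me2 (-0.006 and 0.068 within the replicates) and 0.0077 in H3K4me1 (-0.106 and 0.091). Near shared and mutant-only peaks these medians were 0.0509 and 0.0485 in H3K4me2 and 0.0351 and 0.0397 in H3K4me1. All windows gave -0.0059 and -0.0156. Mutant against empty vector gave -0.054 (0.092 and -0.134) and -0.046 (0.113 and -0.104). Here shared and mutant-only peaks had -0.0477 and -0.038 in H3K4me2 and -0.0156 and -0.0064 in H3K4me1. All windows gave 0.0261 and -0.0029.

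At the listed genes the libraries of the constructs overlapped in H3K4me2. The Ezh2 window had 109, 125 and 117 CPM in wild-type, 118, 100 and 93.8 CPM in mutant and 112, 109 and 107 CPM in empty-vector libraries. The wild-type values of Ezh2 lay above the mutant ones in replicates 2 and 3 and below in replicate 1. Fli1 had 175, 160 and 155 CPM in wild-type, 182, 125 and 132 CPM in mutant and 171, 161 and 163 CPM in empty-vector libraries, again with the mutant low in replicates 2 and 3. Hhex had 118, 124 and 124 CPM in wild-type, 129, 115 and 115 CPM in mutant and 125, 126 and 124 CPM in empty-vector libraries. Cxxc1 had 64.6, 63.0 and 58.9 CPM in wild-type, 62.9, 51.0 and 51.4 CPM in mutant and 62.3, 65.2 and 65.5 CPM in empty-vector libraries. The ranges of Tfrc and Men1 overlapped too. For wild type against mutant the log2 differences of Ezh2, Fli1, Hhex and Cxxc1 were 0.17, 0.15, 0.03 and 0.17, with adjusted p of 0.524, 0.595, 0.886 and 0.519 in edgeR's test. Within replicate 1 they were -0.11, -0.06, -0.12 and 0.04, and within replicates 2 and 3 they were 0.32, 0.29, 0.11 and 0.25. In H3K4me1 the Ezh2 window had 42.1, 67.0 and 64.1 CPM in wild-type, 49.8, 63.6 and 60.0 CPM in mutant and 51.6, 69.6 and 64.8 CPM in empty-vector libraries, groups that overlapped throughout. In this mark the Cxxc1 libraries did not overlap between wild type (55.8, 60.3 and 53.4 CPM) and mutant (52.6, 45.2 and 48.7 CPM). The pooled log2 difference of Cxxc1 was 0.21 (adjusted p = 0.999 in edgeR's test), with 0.085 in replicate 1 and 0.275 in replicates 2 and 3.

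**Figure D5:**
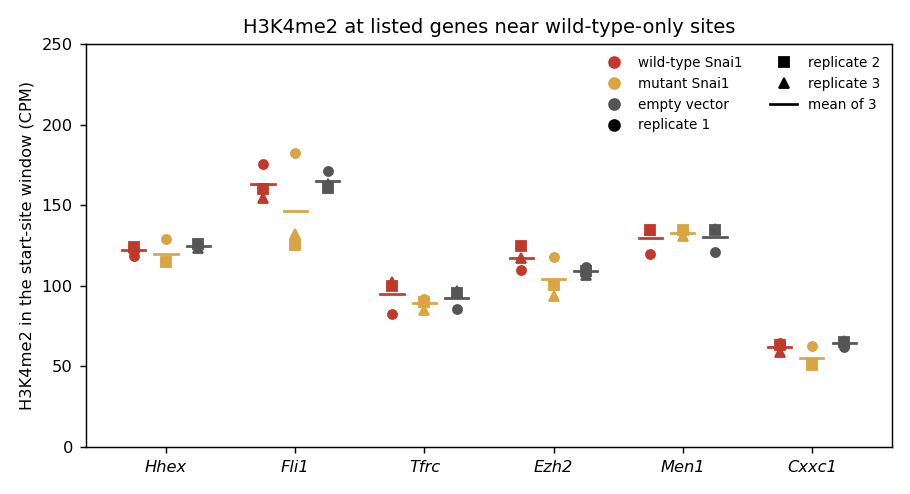
H3K4me2 in the start-site window (vertical axis, CPM on TMM-scaled library sizes) of the 6 listed genes near a wild-type-only site (horizontal axis), with 1 point per library, marked by replicate, and a bar at the mean of 3, for wild-type Snai1, mutant Snai1 and empty vector. In Fli1 and Ezh2 the mutant libraries of replicates 2 and 3 lie below the wild-type ones, and replicate 1 of the mutant lies above replicate 1 of wild type.

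Among genes near the wild-type-only sites whose libraries did not overlap, those with the smallest p are named next, none of which passed edgeR's test. In H3K4me2 of wild type against mutant, Cd300ld3, a gene of the CD300 family of myeloid receptors, had 21.1, 19.7 and 18.7 CPM in wild-type and 11.9, 10.5 and 11.2 CPM in mutant libraries. Its wild-type libraries were all higher, with like differences in replicate 1 (0.81) and in replicates 2 and 3 (0.81; pooled log2 0.82, SE 0.238, adjusted p = 0.503 in edgeR, 0.0283 in DESeq2). The mutant libraries of Cd300ld3 also lay below the empty-vector ones, at 11.9, 10.5 and 11.2 CPM against 14.4, 23.6 and 23.3 CPM (log2 -0.86, SE 0.238, adjusted p = 0.952 in edgeR; -0.27 in replicate 1 and -1.10 in replicates 2 and 3). Amdhd2, an enzyme gene of amino sugar breakdown with a wild-type-only summit in its promoter, had 131, 133 and 131 CPM in wild-type and 129, 96.8 and 94.4 CPM in mutant libraries. The gap at Amdhd2 was 0.03 in replicate 1 and 0.46 in replicates 2 and 3 on the log2 scale. Its chromosome had a pooled median of 0.18, and of 0.32 in replicates 2 and 3. Abcc4, an efflux pump gene, and Utp14b, a gene for ribosomal RNA processing, had pooled log2 differences of 0.27 and 0.30, and Dok7, an adaptor gene of the neuromuscular junction, had -0.44. Replicate 1 was nearly level in Abcc4 (0.013), Utp14b (0.015) and Dok7 (-0.075), and the gap lay in replicates 2 and 3 (0.40, 0.45 and -0.63).

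For H3K4me2 of wild type against empty vector the largest gaps came from replicates 2 and 3. Dtx4, a Deltex ubiquitin ligase gene, had 51.3, 77.0 and 61.8 CPM in wild-type and 41.5, 5.49 and 4.93 CPM in empty-vector libraries. Itgb4, the integrin beta-4 gene, had 14.8, 42.8 and 31.7 CPM in wild-type and 14.3, 4.12 and 4.14 CPM in empty-vector libraries. In both genes replicate 1 was nearly level (log2 0.30 and 0.05) and replicates 2 and 3 were far apart (3.69 and 3.11). Wdr43, a ribosome biogenesis gene, had 113, 166 and 164 CPM in wild-type and 112, 96.3 and 99.2 CPM in empty-vector libraries, on a chromosome with a median log2 of 0.25. The log2 difference of Wdr43 was 0.015 in replicate 1 and 0.75 in replicates 2 and 3, where the chromosome median was 0.41. Lrp8os2, a noncoding transcript gene, was lower in each replicate, at 5.59, 6.78 and 6.24 CPM in wild-type and 8.97, 12.3 and 11.0 CPM in empty-vector libraries (log2 -0.79, SE 0.248, adjusted p = 0.489 in edgeR). Scamp5, a secretory carrier gene, was lower too (log2 -0.42). In the mutant against the empty vector, Lrp8os2 was likewise lower (5.42, 8.44 and 7.55 CPM in mutant libraries), and Shoc2, a scaffold gene of RAS signalling, had 82.8, 95.9 and 88.0 CPM in mutant and 69.5, 70.5 and 72.7 CPM in empty-vector libraries (log2 0.33, SE 0.097, adjusted p = 0.952 in edgeR). Bbip1 lies beside Shoc2, and their windows can share reads. Mrps30, a mitochondrial ribosome gene, was higher by 0.25. Over IgG, the log2 ratio of H3K4me2 in wild-type Snai1 cells was -2.773 at Lrp8os2 and -0.679 at Itgb4, both below the IgG level. The other genes of this paragraph had ratios from 0.295 (Scamp5) to 1.261 (Wdr43).

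In H3K4me1 the largest log2 difference among the genes named by this rule was at Creb3l1, the gene of a membrane-bound transcription factor of the endoplasmic reticulum. Creb3l1 had 62.6, 140 and 130 CPM in wild-type and 47.3, 46.2 and 52.9 CPM in mutant libraries, so the groups did not overlap (log2 1.19, SE 0.316, adjusted p = 0.847 in edgeR). The log2 difference of Creb3l1 was 0.40 in replicate 1 and 1.45 in replicates 2 and 3. Lsm1, Bag4 and the chemokine gene Ccl17, all on chromosome 8, whose median was -0.30, were lower in wild-type than in mutant libraries by pooled log2 values of -0.49, -0.48 and -0.51. Within replicate 1 these were -0.19, -0.17 and -0.24. Within replicates 2 and 3 they were -0.63, -0.63 and -0.65, where the chromosome median was -0.46. Lsm1 and Bag4 are neighbours whose windows can share reads. Against the empty vector, Lrp8os2 was lower in wild-type libraries in this mark too, at 36.9, 48.9 and 54.3 CPM against 58.9, 84.7 and 82.9 CPM (log2 -0.62, SE 0.204, adjusted p = 1.0 in edgeR). Fcrla and Mm2pr had log2 differences of -0.49 and -0.57 (-0.21 and -0.29 in replicate 1, -0.71 and -0.72 in replicates 2 and 3), and Zfp748, whose promoter is shown above, had 0.37 (0.086 in replicate 1 and 0.60 in replicates 2 and 3), none of them past the test. In the mutant against the empty vector, Tnfrsf1b, a TNF receptor gene, Ctla4, an inhibitory receptor gene of T cells, and Inpp5k had pooled log2 differences of -0.68, -0.89 and -0.33, and Ccl17 and Lsm1 had 0.43 and 0.32. In replicate 1 Tnfrsf1b (-0.085), Ccl17 (0.016) and Lsm1 (0.076) were nearly level, and Ctla4 and Inpp5k had -0.42 and -0.13. Replicates 2 and 3 gave -1.10 for Tnfrsf1b, -1.19 for Ctla4, -0.42 for Inpp5k, 0.76 for Ccl17 and 0.44 for Lsm1. Chromosome 8, which holds Ccl17 and Lsm1, had a median of 0.16 pooled and 0.36 in replicates 2 and 3. In wild-type Snai1 cells H3K4me1 over IgG stood at log2 -2.361 for Ctla4, -1.791 for Mm2pr and -0.629 for Fcrla, below the IgG level. The other genes of this paragraph stood between 0.007 (Tnfrsf1b) and 1.311 (Creb3l1).

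The counts of passing windows changed when replicate 1 of a construct was left out. Without mutant replicate 1, 69 of 265 H3K4me2 windows near the sites passed for wild type against mutant (26.0%, all windows 16.6%), 66 of them higher (24.9%, all windows 10.6%). Windows near shared and mutant-only peaks passed at 24.7 and 22.7% in that fit. Fli1 (adjusted p = 0.0278 in edgeR), Ezh2 (0.04), Cxxc1 (0.0348), Cd47 (0.0267) and Arrb2 (0.00593) were among the 66. Some of the 66 belong to neighbouring genes whose windows can share reads, such as AU022252 and P3h1 (log2 0.4 and 0.401). The count is therefore not one of separate regions. At Arrb2, which holds one of the strongest sites, H3K4me2 was 98.8, 119 and 108 CPM in wild-type, 116, 63.9 and 67.7 CPM in mutant and 103, 109 and 109 CPM in empty-vector libraries. Arrb2 also was among 4 windows that passed in H3K4me1 of the same comparison (1.5%, all windows 0.823%), with 182, 162 and 154 CPM in wild-type and 229, 88.6 and 91.9 CPM in mutant libraries. Mutant against empty vector gave 15 H3K4me2 windows without mutant replicate 1, all lower in the mutant (5.66%). Over all 25812 windows 620 passed in that fit (2.4%), 406 of them lower. Near shared peaks 70 passed (4.18%), 69 of them lower, and near mutant-only peaks 210 (3.43%), 196 of them lower. Without empty-vector replicate 1, 5 windows near the sites passed for mutant against empty vector (1.89%, all 1.58%). Wild type against empty vector gave 9 without empty-vector replicate 1 (3.4%, all 2.79%), Dtx4 and Itgb4 among them, and 2 without wild-type replicate 1 (0.755%, all 0.682%). Wild type against mutant gave 1 without wild-type replicate 1 (0.377%, all 0.957%). In such fits 1 construct lacks replicate 1 while the others keep it, so construct and replicate cannot be told apart.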

How the data were processed

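Snai1 binding and H3K4 methylation were measured by ChIP-seq in HPC7 cells of 3 constructs. The authors called Snai1 peaks with MACS2, per the submitters' processing notes. Each deposited list gives per peak a fold over local background and a -log10 q, both used here as the authors' values. No source used here states whether input DNA served as control. The deposited counts are raw reads per gene in start-site windows, aligned with Subread and counted with featureCounts, per the submitters' processing notes, on GRCm38 (mm10). Window coordinates are not given in the sources used here.

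The sites were found by overlap of at least 1 base. Gene ends and start sites came from RefSeq GRCm38.p6 (22271 start sites of 18458 genes of the count table, with no entry on chromosome 18, where 11 sites lie). Genes within 5 kb of a site at either end were called near. Shares carry exact Clopper-Pearson 95% intervals, which cover counting error only.

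Of 27095 gene IDs, 27044 were kept after dropping 50 rows that repeat another row and any row without a read (20, most of them also among the 50). Counts were tested per mark over all constructs with edgeR 4.0.16 (R 4.3.3; TMM, filterByExpr, quasi-likelihood F-test, two-sided), adjusted by Benjamini-Hochberg over all windows tested, with DESeq2 1.42.0 as an alternative. The test was run on simulated counts with a common spread for all windows. Those counts had no split between replicate 1 and replicates 2 and 3, so the check does not cover that split. In the empty-vector H3K4me1 data, replicates 2 and 3 differed by less than the sampling noise and were counted as 1 sample (n = 2). The counts of windows whose libraries did not overlap, and the genes named by that rule, still took these 2 libraries separately. Ratios over IgG used CPM on column totals plus 0.1, and other CPM are TMM-scaled.

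Same-numbered libraries deviated together in each comparison with the empty vector (correlations of 0.124 to 0.574). Replicates 2 and 3 did so across numbers too. In H3K4me2, mutant 2 with empty-vector 3 gave 0.254, against 0.156 for 2 with 2. Between wild type and mutant (-0.215 to 0.245) the numbers do not pair the libraries. Differences given there within a replicate split the libraries by number and do not compare matched libraries. The alternatives were other overlap rules, distances and score thresholds, size factors, DESeq2, no filter, a replicate block, a batch term, fewer libraries and narrower gene sets.

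The sites, the 14 gene lists (349 genes) and the tests were chosen with earlier results of these data known. Named were the 12 strongest sites, listed genes near a site, sites on promoters, sites at the overlap limit, Snai1 and Kdm1a, and in each comparison up to 8 passing windows per direction or, with under 5 passing, the 5 with the smallest p whose libraries did not overlap. Predicted genes were left out of the last group. One gene that this rule names is not reported here. Kdm1a, which encodes Lsd1, had no called difference: its log2 differences in H3K4me2 were 0.07 for wild type and -0.02 for the mutant against the empty vector (adjusted p 0.965 and 0.992 in edgeR).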

Additional observations from a re-analysis of the deposited data

How the results depend on the processing

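The 432 sites became 486 when a mutant peak had to cover at least 50% of the site, 385 when a peak within 500 bp counted as shared and 289 within 5 kb. They were 443 with the empty-vector list left aside, and 570 when only mutant peaks with a -log10 q of at least 5 counted. With a wild-type -log10 q of at least 5 there were 312 and with at least 10 there were 64. The share of sites near a gene end was 47.7% at 5 kb, 25.2% at 1 kb and 73.1% at 20 kb. Near the sites, DESeq2 called 1 H3K4me2 window of wild type against mutant and 0 in the other 5 comparisons. With each library left out, H3K4me2 calls ran from 0 to 9 for wild type against empty vector, from 0 to 15 for mutant against empty vector and from 0 to 69 for wild type against mutant. H3K4me1 calls ran from 0 to 4 for wild type against mutant and stayed at 0 against the empty vector.

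With the replicate number as a block, 0 windows near the sites passed in each of the 6 comparisons. Over all windows the block gave 5 H3K4me2 and 2 H3K4me1 calls between wild type and empty vector, 0 and 0 between mutant and empty vector, and 12 and 2 between wild type and mutant. The batch term, size factors of DESeq2 in edgeR, no filter, the fit of only the libraries compared, and narrower gene sets likewise gave 0 near the sites. With empty-vector H3K4me1 replicates 2 and 3 as separate samples, the H3K4me1 medians near the sites were 0.041 for wild type and -0.011 for the mutant against the empty vector, in place of 0.0077 and -0.046. The genes named for the smallest p kept their direction in each alternative run. Small differences of listed genes crossed 0 in some alternatives, such as Hhex in H3K4me2 of wild type against mutant (-0.002 to 0.116). The depth and the 3 libraries per group, 2 samples for empty-vector H3K4me1, limit the smallest difference that could pass.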
